A study of Mus musculus with 23 samples.

Results

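Dbp, Tef and Hlf, the genes of the PAR bZIP transcription factors, were followed in bulk RNA sequencing of mouse lung as 3 of the 24411 genes of the deposited tables. They were taken by symbol and 3 of 3 were found. The members were chosen by their measured values: Dbp and Hlf stood out in fold change between adult Rarres1 knockout (KO) and wild-type (WT) lung, so that the adult KO against WT values below are a description with no test. The 7 groups were KO and WT lung at embryonic day 19.5 (E19.5, 3 libraries each), KO and WT lung at 10 months (3 each), and at 18 months KO lung tumours (3, numbered 1, 3 and 6), KO non-tumour lung (5, numbered 1, 2, 3, 6 and 7) and WT lung (3). All mice were on a C57BL/6 background and untreated in barrier housing, and the postnatal ones were male. The labels call Rarres1 knocked out without naming the allele or the exons removed, and they state neither the embryos' sex nor a collection hour or batch. Since the hour is not given, a difference of genotype in adult lung and a difference in collection hour cannot be told apart for Dbp, Tef, Hlf and the clock genes. Bulk tissue was used, from lung or tumours, so fewer cells of a type and less RNA per cell cannot be told apart.

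PAR bZIP proteins carry a proline- and acidic-rich stretch before a basic leucine zipper, bind as dimers to the D-box, and activate genes near it. Nfil3 is a related leucine zipper repressor that binds the same sequence. In liver and other organs Dbp swings strongly over the day, since the clock activators Clock and Arntl drive it through E-boxes and the Per and Cry proteins hold them back; Tef and Hlf swing less. In liver and kidney the family is known for the daily rhythm of drug-metabolizing enzymes such as cytochromes P450 and their electron donor Por.

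Dbp lies on the plus strand of GRCm38 at chr7:45705088-45710203 with 4 exons and a transcript of 1837 bases. Tef lies on the plus strand at chr15:81802421-81826863, with 2 RefSeq transcripts of 4 exons each that start at different first exons and are 4403 and 4079 bases long. Hlf lies on the minus strand at chr11:90336536-90390895, with 4 exons and 5642 bases. The promoters are shown because the members are classed as clock outputs, and the clock acts on such genes through short motifs. Each is a RefSeq GRCm38.p6 sequence of 250 bases before and 50 bases from the start used by the RefSeq promoter table, read along the gene's strand. The starts used are 45705247 for Dbp, 81802673 and 81811414 for Tef and 90390917 for Hlf. The gene spans above come from the GENCODE annotation, whose outermost starts differ. Those of Dbp and Hlf lie inside their windows, and both Tef promoters lie wholly within the GENCODE span of Tef. Capitals mark an E-box (CACGTG, bound by Clock and Arntl) or a CRE (TGACGTCA, bound by CREB proteins).
Dbp, chr7:45704997-45705296, plus strand: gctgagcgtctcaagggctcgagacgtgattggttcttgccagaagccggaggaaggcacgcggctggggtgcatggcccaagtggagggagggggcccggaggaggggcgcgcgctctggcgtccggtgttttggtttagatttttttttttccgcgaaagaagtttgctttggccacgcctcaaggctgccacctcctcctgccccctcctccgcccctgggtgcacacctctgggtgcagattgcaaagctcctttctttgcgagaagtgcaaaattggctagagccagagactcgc
Tef promoter 1, chr15:81802423-81802722, plus strand: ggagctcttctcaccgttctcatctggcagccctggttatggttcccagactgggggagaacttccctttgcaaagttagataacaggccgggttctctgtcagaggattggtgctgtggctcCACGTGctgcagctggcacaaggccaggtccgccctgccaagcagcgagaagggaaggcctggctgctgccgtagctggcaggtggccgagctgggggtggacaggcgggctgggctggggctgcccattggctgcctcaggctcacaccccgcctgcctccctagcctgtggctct
Tef promoter 2, chr15:81811164-81811463, plus strand: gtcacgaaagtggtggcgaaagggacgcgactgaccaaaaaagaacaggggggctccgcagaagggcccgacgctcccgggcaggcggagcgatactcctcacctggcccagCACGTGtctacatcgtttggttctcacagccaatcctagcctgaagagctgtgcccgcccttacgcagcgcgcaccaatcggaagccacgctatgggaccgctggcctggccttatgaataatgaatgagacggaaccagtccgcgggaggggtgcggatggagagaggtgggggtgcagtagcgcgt
Hlf, chr11:90390868-90391167, minus strand: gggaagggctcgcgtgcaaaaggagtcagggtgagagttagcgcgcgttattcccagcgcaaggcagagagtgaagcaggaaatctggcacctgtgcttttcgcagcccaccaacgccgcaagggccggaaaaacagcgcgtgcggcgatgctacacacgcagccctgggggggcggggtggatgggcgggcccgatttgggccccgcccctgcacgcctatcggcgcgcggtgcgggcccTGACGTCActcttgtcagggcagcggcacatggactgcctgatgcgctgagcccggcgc
Both Tef promoters held 1 E-box, which began 127 bases before the RefSeq start in promoter 1 and 138 bases before it in promoter 2. By the GENCODE span both E-boxes lie inside the gene, that of promoter 2 before the start of the shorter transcript. The Hlf promoter held 1 CRE, 9 bases before its RefSeq start. The Dbp window held neither of these. The D-box itself was searched as TTATGNAA and was in none of the 4 windows. Searched on both strands in all 32851 mouse windows of that length, the E-box was in 7.15%, the CRE in 1.79% and the D-box in 3.38%. The motifs were matched letter by letter and share no bases in these windows.

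Rarres1 reads followed the genotype label in all 23 libraries, with 0 or 1 read in each KO or tumour library, against 24 to 64 in each WT library. Total counts lay between 23.7 and 46.6 M (in units of 1e6) per library. Genes that mark alveolar type 2 cells (Sftpc, Sftpb and others), type 1 cells, club cells and endothelium were detected in full in every group. The library of WT embryo 3 stood apart in markers of basal and squamous cells, with a summed level of 712.8 counts per 1e6 counts (CPM) against 3.47 to 6.05 CPM in the other embryos.

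Dbp was the most variable of the 3 genes across the groups. Its level in fragments per kilobase and 1e6 fragments (FPKM, which corrects for gene length) was 5.98, 5.90 and 7.46 in KO embryos, against 6.06, 5.66 and 6.51 in WT embryos. At 10 months it was 143.13, 99.30 and 125.14 FPKM in KO lung, against 9.38, 10.77 and 9.64 FPKM in WT lung. The embryos of both genotypes overlapped, and every adult KO library stood far above every adult WT library. At 18 months it was 104.97, 97.17 and 115.63 FPKM in tumours, 135.28, 102.65, 93.08, 194.20 and 134.23 FPKM in KO non-tumour lung, and 12.82, 13.30 and 19.63 FPKM in WT lung. Tumours and KO non-tumour lungs overlapped, and both lay above WT. Ordered by mean, Dbp stood highest in KO non-tumour lung at 18 months (131.9 ± 39.6 FPKM, SD, n = 5), then KO lung at 10 months (122.5 ± 22.0, n = 3), tumours (105.9 ± 9.27, n = 3), WT at 18 months (15.2 ± 3.80, n = 3), WT at 10 months (9.93 ± 0.739, n = 3), KO embryos (6.45 ± 0.879, n = 3) and WT embryos (6.08 ± 0.425, n = 3). Neighbours in that order overlapped among the 3 adult KO groups and between the embryo groups.

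Tef had the highest level of the 3 genes in every embryo and WT library. Its level was 51.54, 50.68 and 63.87 FPKM in KO embryos, against 49.99, 51.66 and 54.35 FPKM in WT embryos. At 10 months it was 104.30, 115.72 and 90.12 FPKM in KO lung, against 44.44, 43.14 and 50.31 FPKM in WT lung. WT lungs of 10 months thus lay near the embryos, and the KO lungs above all of these. At 18 months it was 68.02, 71.50 and 84.11 FPKM in tumours, 103.56, 98.01, 80.37, 108.52 and 142.25 FPKM in KO non-tumour lung, and 57.36, 45.46 and 51.12 FPKM in WT lung. The tumours lay above WT and overlapped with the lowest KO non-tumour lung. By mean the order was KO non-tumour lung at 18 months (106.5 ± 22.6 FPKM, SD, n = 5), KO lung at 10 months (103.4 ± 12.8, n = 3), tumours (74.5 ± 8.47, n = 3), KO embryos (55.4 ± 7.38, n = 3), WT embryos (52.0 ± 2.20, n = 3), WT at 18 months (51.3 ± 5.95, n = 3) and WT at 10 months (46.0 ± 3.82, n = 3). The 4 lowest groups overlapped with their neighbours, as did the highest pair.

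Hlf had the lowest level of the 3 in each library. It was 2.69, 2.46 and 2.52 FPKM in KO embryos, against 2.62, 2.59 and 3.18 FPKM in WT embryos. At 10 months it was 10.50, 9.96 and 8.30 FPKM in KO lung, against 2.70, 3.16 and 2.41 FPKM in WT lung. As with Tef, WT lung at 10 months overlapped with the embryos while KO lung stood above them. At 18 months it was 3.55, 2.75 and 8.53 FPKM in tumours, 8.06, 8.28, 8.01, 10.27 and 12.02 FPKM in KO non-tumour lung, and 3.61, 2.55 and 3.54 FPKM in WT lung. Tumours 1 and 3 lay within the WT range, and tumour 6 lay within the range of KO non-tumour lung. By mean the order was KO lung at 10 months (9.59 ± 1.15 FPKM, SD, n = 3), KO non-tumour lung at 18 months (9.33 ± 1.77, n = 5), tumours (4.94 ± 3.13, n = 3), WT at 18 months (3.23 ± 0.593, n = 3), WT embryos (2.80 ± 0.332, n = 3), WT at 10 months (2.76 ± 0.378, n = 3) and KO embryos (2.56 ± 0.119, n = 3). Each neighbouring pair in that order overlapped.

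**Figure D1:**
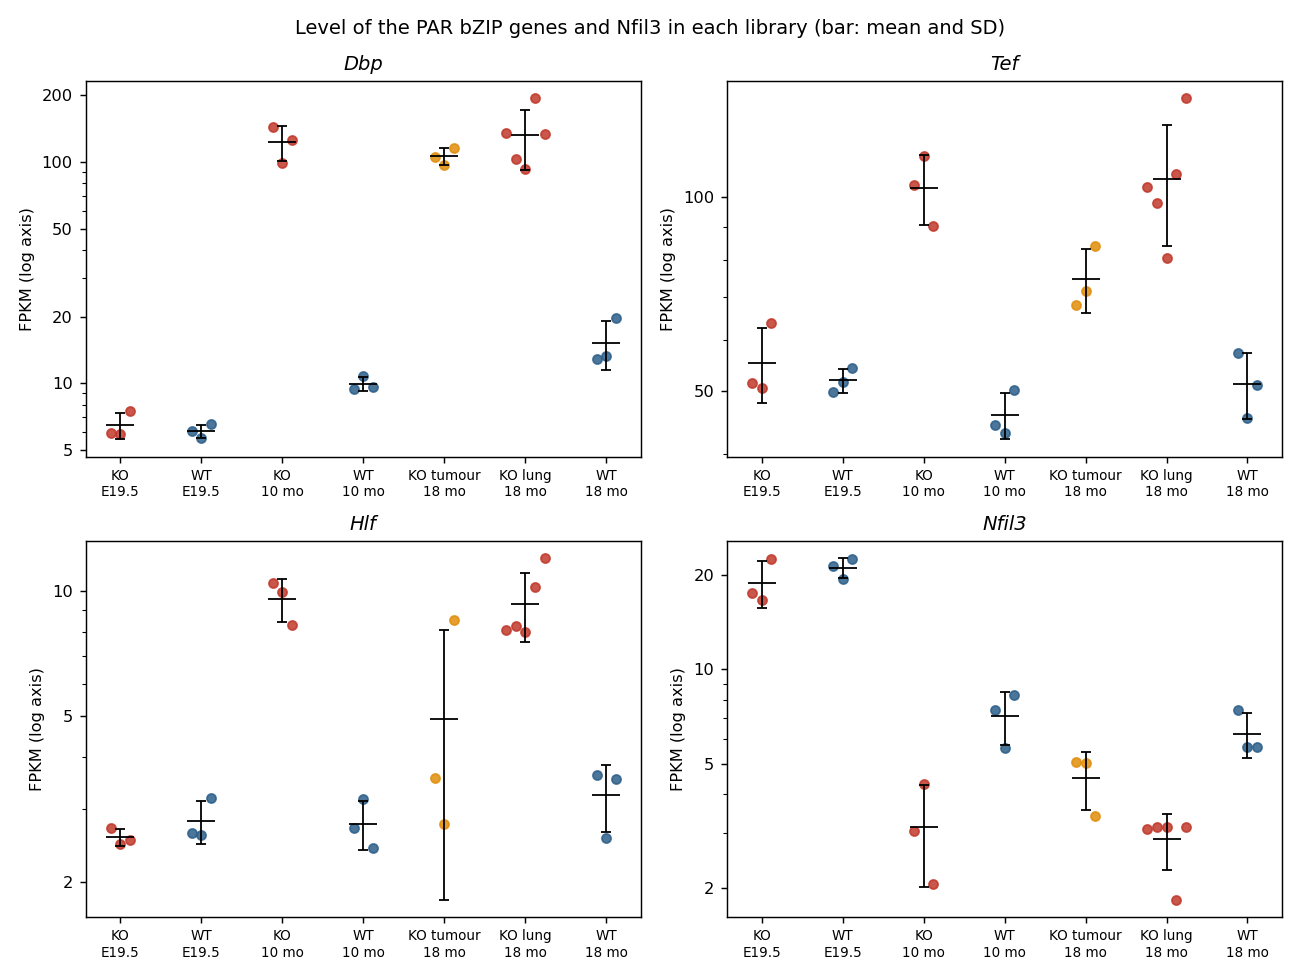
FPKM (log axes) of Dbp, Tef, Hlf and Nfil3 in each of the 23 libraries, by group; each point is a library and bars give the mean and SD. Non-tumour KO libraries of 10 and 18 months stand above WT libraries of those ages in Dbp (93.08 to 194.20 FPKM in KO lung, against 9.38 to 19.63 in WT lung), Tef and Hlf, and below them in Nfil3; tumours 1 and 3 lie in the WT range of Hlf, while the E19.5 groups overlap in all 4 genes.

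Nfil3, the repressor that competes for the D-box, ran the other way. It was at 17.51, 16.59 and 22.55 FPKM in KO embryos, against 21.37, 19.42 and 22.44 FPKM in WT embryos. At 10 months it was at 3.05, 4.30 and 2.06 FPKM in KO lung, against 7.44, 5.61 and 8.30 FPKM in WT lung. Embryos of both genotypes were highest and overlapped, and the adult KO lungs lay below the adult WT lungs. At 18 months it was at 5.07, 5.04 and 3.41 FPKM in tumours, 3.10, 3.13, 3.15, 1.84 and 3.14 FPKM in KO non-tumour lung, and 7.4, 5.63 and 5.67 FPKM in WT lung. The tumours lay between these groups without overlap.

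The sum of the 3 levels, here called the PAR bZIP pool, was higher in adult KO than in adult WT lung, and its make-up differed. It was 64.4 ± 8.23 FPKM in KO embryos, against 60.9 ± 2.81 FPKM in WT embryos (SD, n = 3 each). At 10 months it was 235.5 ± 19.4 FPKM in KO lung, against 58.6 ± 3.22 FPKM in WT lung (n = 3 each). At 18 months it was 185.4 FPKM in tumours (range 171.4 to 208.3, n = 3), 247.8 ± 54.4 FPKM in KO non-tumour lung (n = 5) and 69.8 ± 7.35 FPKM in WT lung (n = 3). Dbp made up 10.0% ± 0.085 of the pool in KO embryos and 9.98% ± 0.470 in WT embryos (SD, n = 3 each), with Tef at 86.0% in KO embryos and 85.4% in WT embryos. In the adults it made up 51.9% ± 6.70 in KO lung, against 17.0% ± 1.74 in WT lung, at 10 months (n = 3 each). At 18 months the share was 57.2% ± 2.02 in tumours (n = 3), 52.8% ± 6.01 in KO non-tumour lung (n = 5) and 21.8% ± 4.53 in WT lung (n = 3). Tef thus led the pool in the embryos and adult WT lungs, and Dbp in the adult KO libraries and tumours. The exceptions were KO lung 2 of 10 months, with 44.1% Dbp and 51.4% Tef, and KO non-tumour lung 7 of 18 months, with 46.5% Dbp. Hlf stayed at 1.60% to 5.54% of the pool throughout.

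**Figure D2:**
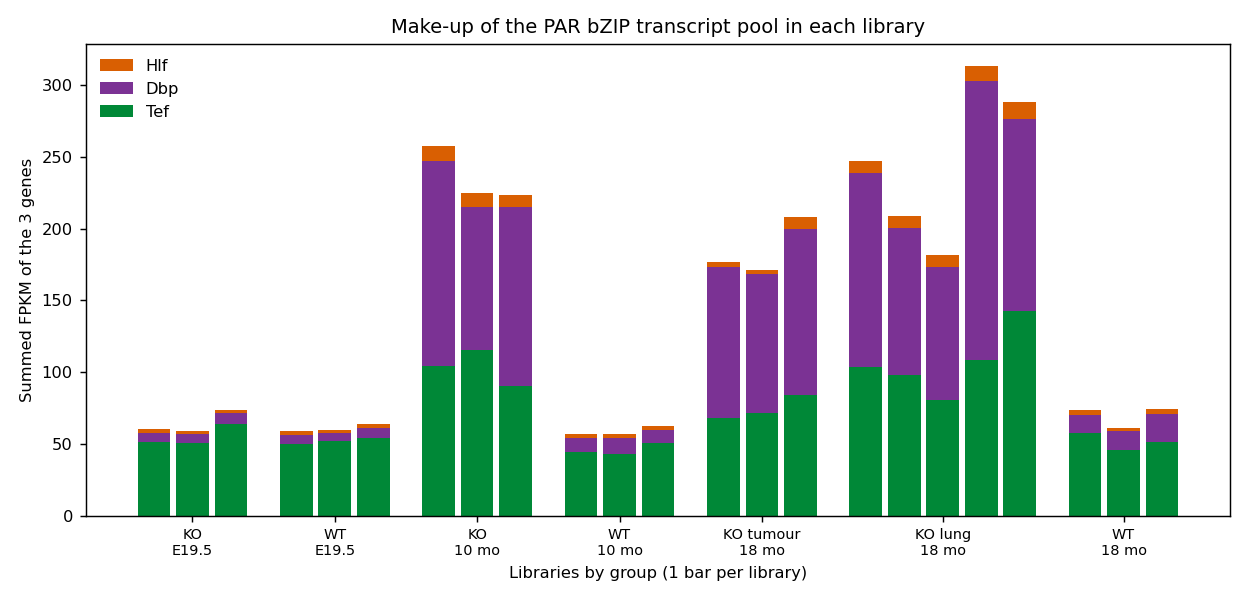
Summed FPKM of Hlf, Dbp and Tef in each library (1 bar per library, stacked by gene, axis from 0), by group. Bars of adult KO lung reach 181.5 to 313.0 FPKM with a large Dbp part, and those of embryos and WT adults stay at 56.5 to 74.3 FPKM and are mostly Tef.

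The ratio of the pool to Nfil3, both in FPKM, set activators against the repressor of the same site. It was 3.42 ± 0.143 in KO embryos, against 2.90 ± 0.174 in WT embryos (SD, n = 3 each), with no overlap between the genotypes. At 10 months it was 81.8 ± 28.2 in KO lung, against 8.43 ± 1.51 in WT lung (n = 3 each). At 18 months it was 43.3 ± 15.4 in tumours (n = 3), 93.2 ± 44.9 in KO non-tumour lung (n = 5) and 11.3 ± 1.61 in WT lung (n = 3). The pool, the Dbp share and this ratio were tested in the 7 comparisons other than adult KO against WT with a two-sided exact permutation test, 21 tests in all. The lowest adjusted p was 0.191. Only the tests between KO and WT embryos used no lung that took part in picking the members. The other tests are thus not independent of that choice. The tests of tumours against KO non-tumour lung also treated every library as independent. Each tumour is read below as sharing its animal with a KO non-tumour lung. The p-values of these tests do not take that pairing into account. Groups of 3 against 3 cannot give a p under 0.1, which the embryo ratio, the 3 tests of tumours against WT and each test of 10 months against E19.5 other than that of the WT pool reached; 3 against 5 cannot go below 0.0357.

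Adult KO lung held higher levels of all 3 genes than adult WT lung, in the contrast by which they were picked. At 10 months the log2 fold change of KO against WT was 3.62 ± 0.14 for Dbp, 1.79 ± 0.12 for Hlf and 1.17 ± 0.11 for Tef (± standard error, SE, n = 3 each). At 18 months, KO non-tumour lung (n = 5) against WT (n = 3), it was 3.06 ± 0.25 for Dbp, 1.48 ± 0.16 for Hlf and 1.01 ± 0.16 for Tef. Dbp thus had the largest fold at both ages and Tef the smallest. For 3 of 3 members the genotypes did not overlap at either age, which held for 24.7% of all genes tested at 10 months and 6.72% at 18 months. The share of all genes called was 1.52% at 10 months, split into 0.574% higher and 0.946% lower, and 0.0776% at 18 months, split into 0.0453% higher and 0.0323% lower. A gene was called at a Benjamini-Hochberg adjusted p under 0.05 in edgeR's quasi-likelihood test. Whether the folds differ between the ages was not tested. Heart muscle genes, a sign of attached heart tissue, also differed at 18 months: their summed level was 58.4 to 281.5 CPM in KO non-tumour lung, against 411.4 to 529.9 CPM in WT lung, with 7 of 7 markers detected in both groups and 0 of 6 tested called. Skeletal muscle markers, 5 of 5 detected, likewise did not overlap at 18 months, at 1.34 to 5.58 CPM in KO non-tumour lung, against 8.82 to 11.6 CPM in WT lung, with 0 of 2 tested called. At 10 months ciliated cell markers did not overlap, at 252.4 to 280.9 CPM in KO lung, against 308.6 to 337.6 CPM in WT lung, with 5 of 5 detected and 1 of 5 called lower. The part of these markers in the members' values was not tested. At 10 months the heart muscle sum overlapped, at 106.2 to 902.3 CPM in KO lung, against 85.3 to 1416 CPM in WT lung. Nfil3 did not pass the test (log2 fold change −1.18 ± 0.29, adjusted p = 0.121 in edgeR at 10 months; −1.16 ± 0.20, adjusted p = 0.0876 at 18 months).

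Before birth no member passed the test between the genotypes. At E19.5 the log2 fold change of KO against WT was 0.11 ± 0.15 for Dbp, 0.11 ± 0.11 for Tef and −0.12 ± 0.12 for Hlf (± SE, n = 3 each). The adjusted p was 1.00 for each in edgeR, and the 3 genes overlapped between genotypes, where 4.96% of all genes did not. Of 15307 genes tested 0 were called (0%), while 144 had an unadjusted p under 0.05 and DESeq2 called 2. Without WT embryo 3, which stood apart in squamous markers, the folds were 0.16 for Dbp, 0.14 for Tef and −0.01 for Hlf, again with no call. Nfil3 stood at −0.14 ± 0.13 (adjusted p = 1.00 in edgeR).

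**Figure D3:**
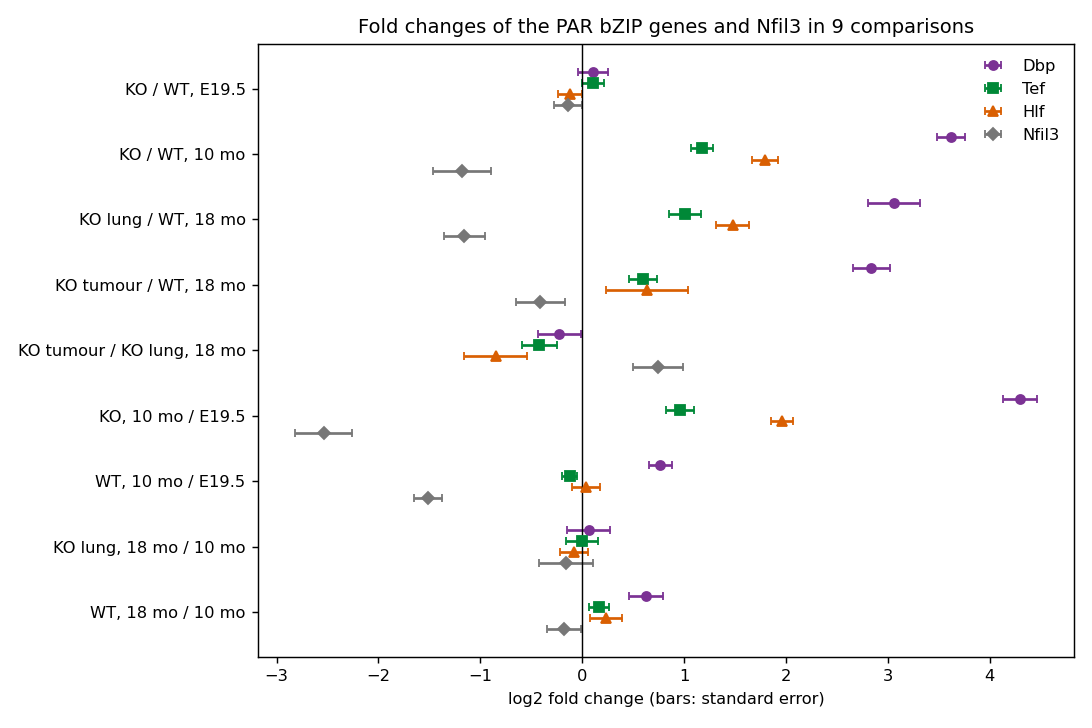
Log2 fold changes with SE bars of Dbp, Tef, Hlf and Nfil3 in 9 comparisons, with the group on top of each fold named first. KO against WT lies near 0 at E19.5 (0.11 for Dbp) and at 3.62 and 3.06 for Dbp at 10 and 18 months, values that chose the genes; tumours lie above WT in Dbp (2.84).

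Between E19.5 and 10 months all 3 members were called higher in KO lung, and Dbp alone in WT lung. In WT, Dbp was higher at 10 months than at E19.5 (log2 fold change 0.77 ± 0.11, adjusted p = 0.000252 in edgeR, n = 3 each). Tef stood at −0.12 ± 0.08 (adjusted p = 0.178 in edgeR, and 0.0425 at −0.19 without WT lung 3 of 10 months) and Hlf at 0.04 ± 0.13 (adjusted p = 0.825). Called members were thus 1 of 3 in WT, where 62.8% of all genes were called (31.6% higher and 31.2% lower). The ranges of Dbp did not overlap, as in 69.5% of genes, while those of Tef and Hlf did. In KO, Dbp rose by 4.30 ± 0.17 on the log2 scale (adjusted p = 1.21e-06 in edgeR), Hlf by 1.96 ± 0.11 (adjusted p = 2.33e-06) and Tef by 0.96 ± 0.14 (adjusted p = 0.000428). Here 3 of 3 were called higher, where 60.5% of all genes were called, 31.1% higher and 29.4% lower. The ranges did not overlap for 3 of 3, as in 69.0% of genes. The KO and WT lungs of 10 months also took part in picking the members, so these calls are not independent of that choice. In WT the Dbp call held without WT embryo 3 (0.82, adjusted p = 0.00031 in edgeR). The difference between the genotypes in maturation was not tested. Nfil3 fell in both, by 2.54 ± 0.28 on the log2 scale in KO (adjusted p = 0.00023 in edgeR) and by 1.51 ± 0.14 in WT (adjusted p = 1.52e-05).

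Between 10 and 18 months no member was called in either genotype. In KO non-tumour lung the log2 fold change of 18 against 10 months was 0.06 ± 0.21 for Dbp, −0.00084 ± 0.16 for Tef and −0.08 ± 0.13 for Hlf (± SE, n = 5 and 3). No member passed the test and all 3 overlapped between the ages; 0% of 15455 genes were called, with 782 at an unadjusted p under 0.05 and 11 called by DESeq2. In WT lung Dbp was at 12.82 to 19.63 FPKM at 18 months and 9.38 to 10.77 FPKM at 10 months, so its ranges did not overlap, as was the case for 10.6% of genes. Its log2 fold change of 0.63 ± 0.16 (n = 3 each) had an unadjusted p of 0.0048 and an adjusted p of 0.84 in edgeR, 0.0913 in DESeq2. Tef stood at 0.16 ± 0.10 and Hlf at 0.23 ± 0.16. In WT 0% of 15321 genes were called, with 833 at an unadjusted p under 0.05 and 21 called by DESeq2. All lungs compared between these ages also took part in picking the members, so their values are not independent of that choice.

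In tumours of KO mice Dbp was close to its level in KO non-tumour lung, and Tef and Hlf had lower means without passing the test. Against KO non-tumour lung the log2 fold change was −0.22 ± 0.21 for Dbp (adjusted p = 0.523 in edgeR), −0.42 ± 0.17 for Tef (adjusted p = 0.131) and −0.85 ± 0.31 for Hlf (adjusted p = 0.104), with n = 3 tumours and 5 lungs. Tumours 1, 3 and 6 are read as coming from the same animals as KO non-tumour lungs 1, 3 and 6, and this fit does not use the pairs. Within them Tef and Hlf were lower in the tumour in 3 of 3 pairs, and Dbp was lower in 2 of 3. With the animal as a block the log2 fold change was −0.28 for Dbp (adjusted p = 0.518 in edgeR), −0.30 for Tef (0.431) and −0.92 for Hlf (0.126). No member was called with the block, where 146 of 15459 genes were. In the main fit, without the block, no member was called, where 13.8% of all genes were (7.2% higher and 6.6% lower). The KO non-tumour lungs also took part in picking the members, so these values are not independent of that choice. For Hlf the answer turned on tumour 6: without it Hlf was called lower, at −1.43 (adjusted p = 0.0011 in edgeR). Without tumour 6 the count of all called genes was 4066, against 2134 with it. DESeq2 also called Hlf lower with all libraries (adjusted p = 0.0413), and a fit over all 23 libraries called Hlf (0.00976) and Tef (0.0252). More genes passed in these fits as well: 3400 of 19191 in DESeq2 and 5158 of 16257 over all libraries, against 2134 of 15459 in the main fit. Tumours also differed among themselves in cell markers, and tumour 6 lay nearer to KO non-tumour lung in some of them. Summed endothelial markers were at 3153 CPM in tumour 6 and at 1153 and 1166 CPM in tumours 1 and 3, against 2821 to 4239 CPM in KO non-tumour lung, with 1 of 6 markers called lower. Summed fibroblast markers were at 1910 CPM in tumour 6 and at 1184 and 1056 CPM in the other tumours, against 2472 to 3023 CPM in KO non-tumour lung, with 2 of 6 called lower. Alveolar type 2 markers were at 40490 CPM in tumour 6 and at 68420 and 92550 CPM in the others, against 16150 to 27160 CPM, with 5 of 6 called higher. Ciliated markers were at 94.0 CPM in tumour 6 and at 146.6 and 129.7 CPM in tumours 1 and 3, against 196.6 to 413.7 CPM, with 5 of 5 called lower, and club markers lay between 9904 and 14710 CPM in the 3 tumours with 3 of 3 called lower, so that tumour 6 was not nearer to lung in these. Tumour 1 stood apart in alveolar macrophage markers, at 12680 CPM where the other tumours were at 2064 and 2049 CPM, and in B and plasma cell markers, at 1595 CPM where they were at 80.9 and 185.4 CPM. The part of these cell types in the Hlf and Tef values was not tested. Nfil3 stood at 0.74 ± 0.25 on the log2 scale (adjusted p = 0.0771 in edgeR).

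Against WT lung of 18 months the tumours kept a high Dbp. Its log2 fold change was 2.84 ± 0.18 (adjusted p = 0.00398 in edgeR, n = 3 each) and all 3 tumours stood above all 3 WT lungs, a separation seen in 42.7% of genes. Leaving out each library in turn gave Dbp folds of 2.73 to 3.06. The call held each time, with adjusted p from 0.000981 to 0.0497 in edgeR, the latter just inside the threshold. Tef was higher by 0.59 ± 0.14 (adjusted p = 0.0345), a call lost without WT lung 1 (adjusted p = 0.0753), 2 (0.152) or 3 (0.151) or tumour 3 (0.0701), and lost with the replicate number as a block (0.132). With each library left out in turn the Tef fold ran between 0.51 and 0.69. The count of all called genes then ran between 3 and 5722, against 2358 in the main fit and 2245 with the block. Hlf stood at 0.64 ± 0.40 (adjusted p = 0.309). So 2 of 3 members were called higher, where 15.4% of all genes were called, 7.87% higher and 7.5% lower. Genotype and tumour tissue differ together in this comparison and cannot be told apart, and the WT lungs of 18 months also took part in picking the members.

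Dbp shares its last 737 bases, chr7:45709467-45710203, with Sphk2, the gene of a sphingosine kinase on the opposite strand. Its expected counts carried decimals in 23 of 23 libraries, and the sum of Dbp and Sphk2 was whole within 0.015 in 23 of 23, so reads were divided between these genes. Tef and Hlf had no decimals in any library. Whether counting used strand is not given in the sources used here, so reads of Dbp and Sphk2 in the shared stretch may be exchanged. Sphk2 was itself not called in any of the comparisons of KO with WT (log2 fold change −0.20 ± 0.07 at 10 months, adjusted p = 0.19 in edgeR). Dbp and Sphk2 summed had a log2 ratio of 1.78 at 10 months (227.9 CPM in KO lung, against 66.2 CPM in WT lung) where Dbp alone had 3.63. At 18 months the sum gave 1.63, from 239.5 CPM in KO non-tumour lung, against 77.4 CPM in WT lung. In WT from E19.5 to 10 months the sum gave 0.253, where Dbp alone had 0.779. In WT from 10 to 18 months it gave 0.227, against 0.627 for Dbp alone. For tumours against WT it gave 1.47 (Dbp alone 2.85), and in KO from E19.5 to 10 months 2.08 (4.30). The mean in WT embryos was 8.63 CPM for Dbp and 55.5 CPM for the sum. The summed values were not tested. Sphk2 itself was at 12.8 ± 0.950 FPKM in KO lung, against 14.7 ± 0.588 FPKM in WT lung, at 10 months (SD, n = 3 each). Car11, the upstream neighbour of Dbp on the same strand, was not called either (log2 fold change 0.28 ± 0.27 at 10 months, adjusted p = 0.627 in edgeR). Tef overlaps the predicted gene Gm17597 over 193 bases at its first start.

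Clock regulators and other clock outputs were set beside Dbp, Tef and Hlf. Of 4 clock activators, 3 fell in KO lung at 10 months: Npas2 by 2.73 ± 0.14 on the log2 scale (adjusted p = 8.3e-05 in edgeR), Arntl by 2.58 ± 0.16 (0.000573) and Clock by 0.62 ± 0.09 (0.0125). The list's median was −1.60, against −0.000307 over all genes. At 18 months 2 of 4 fell, Arntl and Npas2. The activator Arntl2 went the other way without a call, at 0.65 ± 0.29 at 10 months (adjusted p = 0.285 in edgeR). It stood at 1.04 ± 0.47 at 18 months (adjusted p = 0.629), and its mean in KO lung of 10 months was 0.47 FPKM. Of 8 E-box repressors (the Per, Cry and Dec genes and Ciart), 3 rose at 10 months, among them Per3 by 1.73 ± 0.10 (adjusted p = 0.000104) and Bhlhe41 by 1.59 ± 0.14 (0.00278), with a list median of 1.38. At 18 months 1 of 8, Bhlhe41, rose, with a median of 1.35. Of 5 Rev-erb and ROR receptors, which act on Arntl and Nfil3, 1 rose at 10 months (Nr1d2, 1.28 ± 0.09, adjusted p = 0.000385) and 2 at 18 months (Nr1d1 and Nr1d2). Among 7 other clock outputs, Tspan4 and Wee1 rose and Cdkn1a fell at 10 months, and Tspan4 rose at 18 months. For reading these counts, 1.52% of all genes were called at 10 months and 0.0776% at 18 months. At E19.5 and between 10 and 18 months 0 genes were called at all, these lists included.

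Known target genes of the family were set beside it. Of the 15 listed, mostly from mouse liver, 8 passed the filter on low counts and 7 were too low to test, among them the bile acid enzyme Cyp7a1 and the nuclear receptor gene Nr1i3. Of the 8, 0 were called between KO and WT at 10 months, where 1.52% of all genes were, and 0 at 18 months, where 0.0776% were, so a count of 0 among 8 genes is near the background. Their median log2 fold change was 0.22 at 10 months and 0.18 at 18 months. Cyp2b10, a drug-metabolizing cytochrome P450, was at 217.3 ± 22.3 FPKM in KO lung, against 232.3 ± 6.20 FPKM in WT lung, at 10 months (SD, n = 3 each; log2 fold change −0.10 ± 0.09, adjusted p = 0.599 in edgeR). Alas1, the first enzyme of haem synthesis, was at 158.7 ± 10.5 FPKM in KO lung, against 134.0 ± 9.90 FPKM in WT lung (0.24 ± 0.07, adjusted p = 0.148). Por, the electron donor of cytochromes P450, was at 182.7 ± 19.9 FPKM in KO lung, against 157.6 ± 4.72 FPKM in WT lung (0.21 ± 0.08, adjusted p = 0.215). Pdxk, the vitamin B6 kinase, had the smallest p of the tested targets at both ages (0.27 ± 0.07, adjusted p = 0.111 at 10 months; 0.37 ± 0.09, adjusted p = 0.219 at 18 months). These missed calls do not show that the targets were equal. In maturation the same 8 genes changed in both genotypes, 6 higher and 2 lower at 10 months than at E19.5 in KO, where 60.5% of all genes were called, and again in WT, where 62.8% were. Cyp2b10 rose by 6.35 ± 0.12 on the log2 scale in KO and by 6.56 ± 0.09 in WT. In tumours against KO non-tumour lung 4 of 8 were lower (Alas1, Cyp2a5, Cyp2b10 and Por), where 6.6% of all genes were, and 1, Alb, was higher, where 7.2% were. Club cell markers, 3 of 3 detected, were also at 9904 to 14710 CPM in tumours, against 26250 to 50350 CPM in KO non-tumour lung, and their part in these values was not tested. Alb is itself in the list of hepatocyte markers, of which 3 of 3 tested were called higher in tumours. Their sum was 8.44 to 41.8 CPM in tumours, against 1.70 to 2.42 CPM in KO non-tumour lung. Of the C/EBP relatives, leucine zipper proteins with a similar site, 0 of 5 were called between KO and WT at 10 months and 0 of 6 at 18 months.

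The genes whose levels ran most like those of the members over the 23 libraries were mostly clock genes for Dbp and less so for Hlf. Likeness was Pearson's r of log2(CPM + 1), among 14550 genes with a mean of at least 1 CPM. It is given as a description, since the libraries share their groups. Dbp ran most like Nr1d2 (r = 0.96), Bhlhe41 (0.954), Mir22hg, the host transcript of a microRNA (0.927), Ciart (0.911) and Tef (0.903). Tef ran most like Hlf (r = 0.921), Ciart (0.92), Dbp (0.903), Tspan4 (0.901) and Zfp346, a zinc finger gene (0.872). Hlf ran most like Zfp346 (r = 0.947), Tef (0.921), Angptl2, a secreted angiopoietin-like protein (0.896), Pik3ip1, an inhibitor of PI3 kinase (0.887) and Dbp (0.878). With each library set relative to its group mean, the likeness of members to each other was weaker, with r = 0.443 for Tef and Hlf, 0.257 for Dbp and Hlf and 0.239 for Dbp and Tef. On that scale Tef had r = 0.703 with Ciart, 0.615 with Tspan4 and 0.308 with Zfp346. Hlf had r = 0.835 with Angptl2, 0.763 with Pik3ip1 and 0.685 with Zfp346. Among the listed genes that are not members, Dbp lay between 0.4625 with Nr1d2 and 0.5926 with Bhlhe41.

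**Figure D4:**
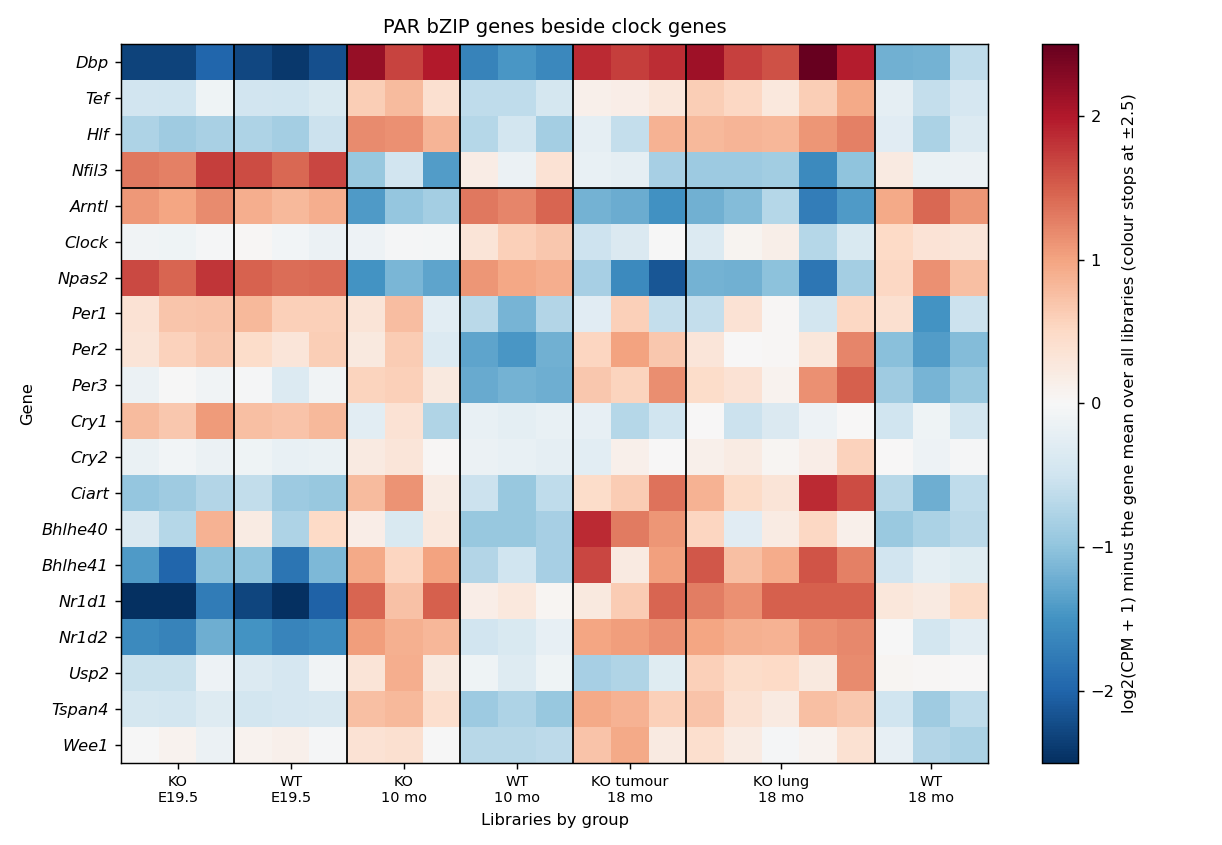
Log2(CPM + 1) of the PAR bZIP genes and Nfil3 (above the line) and of clock genes (below it) in each library, as the difference from the gene's mean over all 23 libraries; the colour stops at ±2.5. Non-tumour adult KO libraries lie above the mean in the members and below it in Arntl and Npas2, and adult WT libraries lie on the other side; among tumours Hlf lies below its mean in tumours 1 (−0.22) and 3 (−0.59).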

How the data were processed

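RNA sequencing of 23 mouse lung libraries in 7 groups was analysed from 2 deposited tables of 24411 genes. The authors deposited expected counts per gene made with RSEM 1.3.0, and FPKM rounded by them to 2 decimals; per the submitters' processing notes, Trimmomatic 0.36, STAR 2.5.2b and build mm10 were also used. All sample columns were used. Expected counts were rounded to whole numbers and edgeR 4.0.16 (R 4.3.3) was run for every comparison on the libraries of its groups alone (TMM scaling, default filterByExpr filter, robust quasi-likelihood F test), with Benjamini-Hochberg adjustment over all genes tested and a call at an adjusted p under 0.05. SE values were derived from the test, by dividing the size of the fold change by the root of F. CPM are TMM-scaled. Alternatives were DESeq2 1.42.0, its size factors in edgeR, no filter on low counts, a fit over all 23 libraries, the replicate number as a block, and each library left out. Exact permutation tests used scipy 1.17.1 in Python 3.11.15, and matplotlib 3.10.9 drew the figures. The fits were tested on simulated data.

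The members, gene lists and marker lists were chosen with earlier results of these data known. The naming rule took the members, Nfil3, Rarres1, genes that overlap a member, the 5 genes most like each member, and up to 4 genes of each list with the smallest adjusted p per comparison; other list genes were named after their values were seen. Within groups, 28 pairs of libraries differed by more than counting error (chi-square per degree of freedom 6.72 to 228). KO non-tumour lungs 6 and 7 are numbered here by the code in their labels, whose titles count them as 4 and 5. For tumours 1, 3 and 6 the labels show animal codes that recur in KO non-tumour lungs of those numbers, taken here to mean pairs from the same animals. Their same-number deviations correlated at 0.465, 0.00494 and 0.0588. Elsewhere the numbers do not pair libraries, and, since nothing else is said of how replicates arose, a p-value covers only the spread among these libraries. Precision is limited by 3 to 5 libraries per group more than by depth, of 23.7 to 46.6 M counts (1e6).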

Additional observations from a re-analysis of the deposited data

Results flagged for a closer look

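Between E19.5 and 10 months Tef had fold changes of opposite sign in the genotypes. Its log2 fold change of 10 months against E19.5 was 0.9566 in KO lung and −0.124 in WT lung. The WT change was not called (adjusted p = 0.178 in edgeR), and the WT groups overlapped. In FPKM each KO lung of 10 months lay above the KO embryo mean and each WT lung lay below the WT embryo mean; the difference between the genotypes was not tested.

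Within KO non-tumour lung of 18 months (n = 5), single libraries stood apart in 6 of the 38 genes looked at, by Dixon's ratio above 0.71; chance flags about 1 in 20 groups. Nfil3 was lowest in lung 6, at 1.84 FPKM, where Dbp was highest. Per2 (24.1 FPKM), Cry2 (34.78 FPKM), the clock output Usp2 (9.72 FPKM) and the P450 electron donor Por (249.35 FPKM) were highest in lung 7, where Tef and Hlf were highest too. Car11, the upstream neighbour of Dbp, was highest in lung 6 (2.98 FPKM).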

How the results depend on the processing

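Every call on a member in the comparisons of 10 months with E19.5 kept its side of the threshold under the other tool, scaling, filter and fits; with a library left out the exception was Tef in WT, called without WT lung 3 of 10 months (−0.19, adjusted p = 0.0425 in edgeR). For tumours against KO non-tumour lung, a fit over all 23 libraries called Tef (−0.41, adjusted p = 0.0252 in edgeR) and Hlf (−0.84, 0.00976), and DESeq2 called Hlf (−0.84, 0.0413). With the animal as a replicate block no member was called there (Dbp −0.28, Tef −0.30, Hlf −0.92) and the count of called genes fell to 146, against 2134 without the block; it was 3400 in DESeq2 and 5158 in the fit over all libraries. For tumours against WT, where numbers pair nothing, the replicate block gave Tef 0.46 (adjusted p = 0.132) and Hlf −0.11, and 2358 called genes became 4099 in DESeq2 and 5417 in the fit over all libraries. Between 18 and 10 months in KO, Dbp was −0.15 with the block and Tef was 0.0078 in the fit over all libraries, so their signs are not settled. The 0 calls at E19.5 became 2 in DESeq2 and 1 in the fit over all libraries; those of WT ageing became 21 and, with the block, 1; those of KO ageing became 11 and 1. At 10 months, 233 genes called between KO and WT became 586 in DESeq2, 63 with the block and 41 in the fit over all libraries, and at 18 months 12 became 157 in DESeq2 and 26 in that fit. The cause was not tested.

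With each library left out in turn, Hlf in tumours against KO lung ran between −1.43 and −0.55 and Tef in tumours against WT between 0.51 and 0.69. At E19.5 Dbp ran between −0.029 and 0.17 and Tef between −0.027 and 0.17. In KO ageing Dbp ran between −0.11 and 0.18 and Tef between −0.10 and 0.10; in WT, from E19.5 to 10 months, Tef ran between −0.19 and −0.082 and Hlf between −0.082 and 0.15. Counts of called genes ran between 1074 (without tumour 3) and 4066 (without tumour 6) for tumours against KO lung, between 3 (without WT 3) and 5722 (without tumour 6) for tumours against WT, between 0 and 10 (without WT 1 of 18 months) in WT ageing, between 66 (without KO 1) and 205 at 10 months, and between 3 (without WT 2 or 3) and 26 (without KO 7) at 18 months.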
